A study of Homo sapiens with 4 samples.

Results

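The 8 genes described here make cholesterol or control how much of it a cell makes: HMGCS1, IDI1, FDFT1, SQLE, LSS and DHCR7 encode enzymes of the synthesis pathway, SREBF2 encodes its main transcription factor, and INSIG1 encodes a brake on that factor. They were taken by name, with every probe whose RefSeq transcript belongs to 1 of them, and make up 8 of the 20501 genes that could be named on the arrays. MCF-10A, a human mammary epithelial line that is not tumorigenic, was given 10 µM of a hydrocarbon-stapled peptide, and RNA was taken after 24 h or 48 h. The peptide was either stapled-peptide or non-specific stapled-peptide in the submitters' labels, and the question was whether a stapled inhibitor of the BIG3-PHB2 interaction affects cells outside its intended target. There was 1 array for each peptide and time, 4 in all, and no untreated array. In the labels non-specific stapled-peptide is the control treatment, and nothing there tells which of the study's named peptides either name stands for. Every difference between peptides is therefore given as non-specific stapled-peptide minus stapled-peptide. With no replicate culture no test was possible, and no value below has an error between cultures.

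Cells build cholesterol from acetyl-CoA through mevalonate, isoprenoids and squalene to lanosterol, which is then trimmed and reduced to cholesterol. When sterols in the endoplasmic reticulum run low, SREBP-2, the product of SREBF2, is carried to the Golgi by SCAP, cut there, and sent to the nucleus, where it raises transcription of nearly every gene of the pathway and of genes for the uptake of lipoproteins. When sterols are plentiful, INSIG proteins hold SCAP and SREBP-2 back. Because the enzymes answer to 1 factor, their transcripts tend to move together in epithelial cells and elsewhere. SREBF2 and INSIG1 are themselves targets of SREBP-2.

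The sequences just before the transcription start are given for the 4 genes with a CCAAT box before their most upstream annotated start. Each is 150 bases of the RefSeq sequence on GRCh38.p14, from 180 to 31 bases before the start, written 5′ to 3′ on the strand of the gene. Capitals mark the sterol regulatory element TCACNCCAC, the CCAAT box and the E-box CACGTG, read on either strand. Among these 4 sequences a match to TCACNCCAC is present in that of SREBF2 alone, and other forms of the sterol regulatory element were not sought.
SREBF2: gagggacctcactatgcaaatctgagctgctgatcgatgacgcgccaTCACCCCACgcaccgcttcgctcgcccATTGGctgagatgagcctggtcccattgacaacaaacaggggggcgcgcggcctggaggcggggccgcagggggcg
INSIG1: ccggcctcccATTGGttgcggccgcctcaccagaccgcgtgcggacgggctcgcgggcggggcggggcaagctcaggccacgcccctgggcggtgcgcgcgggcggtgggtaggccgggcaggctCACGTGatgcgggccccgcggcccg
HMGCS1: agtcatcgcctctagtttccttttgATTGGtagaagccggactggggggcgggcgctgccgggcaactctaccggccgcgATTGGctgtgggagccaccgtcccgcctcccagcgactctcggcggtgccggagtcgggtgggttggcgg
LSS: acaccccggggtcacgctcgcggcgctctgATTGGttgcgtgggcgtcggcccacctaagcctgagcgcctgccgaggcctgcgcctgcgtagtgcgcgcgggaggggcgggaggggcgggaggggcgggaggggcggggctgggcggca
They lie at chr22:41832925-41833074 on the plus strand (SREBF2), chr7:155297698-155297847 on the plus strand (INSIG1), chr5:43313443-43313592 on the minus strand (HMGCS1) and chr21:46228805-46228954 on the minus strand (LSS).

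Of the 8 genes, 6 matched the promoter table, with 10 windows of 300 bases between them because some have more than 1 annotated start. FDFT1 and SQLE had no entry. The motif TCACNCCAC, which SREBP-2 binds, was found in 1 of the 10 windows, that of SREBF2, and in 1.13% of all 35116 windows. CCAAT, a site of NF-Y, stood in 7 of the 10 windows, against 34.6% of all windows, and in at least 1 window of each of the 6 genes. GGGCGG, a site of Sp1, stood in 9 of the 10 windows, against 45.0% of all windows. CACGTG stood in 2 of the 10 windows, those of INSIG1 and LSS, against 7.26% of all windows. No match of 1 motif overlapped a match of another, and a match is a description of the letters, not of binding.

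Before the levels, the array labelled non-specific stapled-peptide 48 h has to be set apart. Over the 16143 to 17303 named genes that were well above background on at least 1 of the arrays compared, the other 3 arrays correlated with each other at Pearson r from 0.987 to 0.988, and with this array at r from 0.778 to 0.785. Its markers went against the label of the cell line. The summed linear signal of 15 basal mammary markers was between 168604 and 175230 on the other 3 arrays and 934 on this one. KRT5, a keratin that marks basal mammary cells, had log2 signals of 14.65, 14.54 and 14.59 on the other 3 and 5.02 here, and KRT6A, TRIM29 and DSG3 were not well above background here. Against stapled-peptide at 48 h, 14 of the 15 basal markers were at least 2-fold lower, beside 19.8% of all genes. DSC3 was not, at -0.33, and TP63 at -1.01 and ITGA6 at -2.04 differed least among the 14. The sums of 8 luminal, 6 fibroblast and 5 leukocyte markers were also lower, at 6625, 185 and 881, against at least 30654, 29543 and 2735 on the other arrays. The sum of 5 markers of embryonic kidney lines was at most 312 on the other arrays and 19112 here, and that of 10 proliferation genes at most 6944 and 17234. CKB and LIN28B, at 10067 and 7446, made up most of the kidney sum. Against stapled-peptide at 48 h, 4 of those 5 markers were at least 2-fold higher, beside 21.2% of all genes. PAX2 was not well above background here at the probe used, but was at a second probe. MCM2 alone gave 7423 of the proliferation sum. Of those 10 genes 6 were at least 2-fold higher, and MKI67 was lower at -0.98. The sum of the 8 cholesterol genes was between 28865 and 30155 on the other 3 arrays and 11727 here. The part of these differences in the results below was not tested. In bulk RNA, fewer cells of a type and less RNA per cell cannot be told apart. The comparison of peptides at 24 h and that of times under stapled-peptide do not use this array, whereas the comparison of peptides at 48 h and that of times under non-specific stapled-peptide share it.

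The 8 genes had 9 probes, each with 1 spot, and all 9 were well above background on all 4 arrays. Values are log2 signals after quantile normalization, in which 1 unit is a 2-fold difference, and levels are not compared between genes because probes differ in brightness. The arrays are named in the order stapled-peptide 24 h, non-specific stapled-peptide 24 h, stapled-peptide 48 h and non-specific stapled-peptide 48 h. As a measure of error within an array, probes with 10 spots had a median SD of 0.07 to 0.08 between spots, which gives 0.11 for a difference of 2 spots and leaves out the spread between cultures.

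HMGCS1, the cytosolic HMG-CoA synthase that feeds the mevalonate pathway, had log2 signals of 9.57, 9.84, 9.75 and 8.29. The non-specific stapled-peptide 48 h array was the low one, and the other 3 spanned 0.27, the widest spread of the 8 genes. IDI1, which isomerizes the isoprenoid building blocks, had 10.66, 10.85, 10.72 and 9.60. Here too the other 3 arrays lay close together and above the fourth. FDFT1, squalene synthase, commits isoprenoids to sterols and had 12.44, 12.45, 12.38 and 10.37. Among the brightest probes of the 8 genes it had the largest gap between the fourth array and the rest, with the other 3 within 0.07.

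SQLE, squalene epoxidase, carries out the oxygen-dependent step after squalene and had log2 signals of 11.77, 11.65, 11.67 and 10.39. LSS, which closes the epoxide into lanosterol, had 11.97, 11.84, 11.88 and 10.38. The pattern was that of FDFT1, with 3 arrays together and the fourth below them. A second LSS probe, for another transcript of the gene, was dimmer at 7.72, 7.76, 7.76 and 5.54, so both LSS probes were lowest on the same array. DHCR7, which reduces 7-dehydrocholesterol to cholesterol, had 13.53, 13.55, 13.41 and 12.25. Each of the enzymes was lowest on the fourth array, as were 46.6% of the genes well above background on all 4 arrays.

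SREBF2, the gene of SREBP-2, had log2 signals of 10.19, 10.13, 10.17 and 9.54. INSIG1, whose product retains SCAP in the endoplasmic reticulum, had 10.75, 10.79, 10.89 and 10.01. Both regulators were again lowest on the non-specific stapled-peptide 48 h array, with smaller gaps than the 6 enzymes. All 8 genes were lowest there, as were 46.6% of the genes measured on all 4 arrays. All 8 also lay below the other arrays by more than those 3 differed among themselves, which held for 38.9% of those genes.

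**Figure D1:**
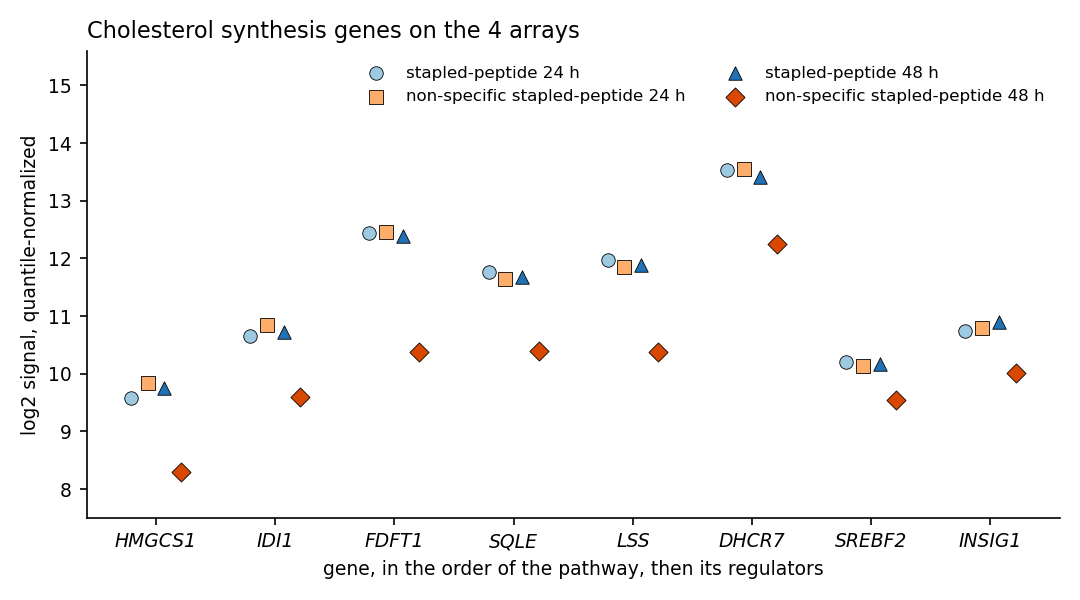
Log2 quantile-normalized signal (vertical axis) of the 8 cholesterol genes (horizontal axis), with 1 point for each of the 4 arrays, named by peptide and time. For every gene the point of the non-specific stapled-peptide 48 h array is the lowest, for FDFT1 at 10.37 against 12.38 to 12.45 on the other 3.

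At 24 h the peptides gave nearly the same levels of all 8 genes. The median difference was 0.01 on the log2 scale, against 0.01 over all genes. The largest were 0.27 for HMGCS1 and 0.19 for IDI1, both higher on the non-specific stapled-peptide array and equal to 1.21-fold and 1.14-fold. The others, from -0.12 for LSS and SQLE through -0.06 for SREBF2, 0.01 for FDFT1 and 0.02 for DHCR7 to 0.04 for INSIG1, were near or under the spot error of 0.11. No gene of the 8 was 2-fold apart, and over all genes measured in this comparison 0.836% were at least 2-fold higher and 1.03% at least 2-fold lower. The signs for FDFT1 and DHCR7 turned under some other settings of the processing.

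From 24 h to 48 h under stapled-peptide the 8 genes also kept to within 1.13-fold. The median difference, 48 h minus 24 h, was -0.04, and over all genes it was 0.00041. HMGCS1 was higher by 0.18 and INSIG1 by 0.15 at 48 h, IDI1 by 0.06, and the other 5 were lower, with DHCR7 at -0.12, SQLE at -0.10, LSS at -0.09, FDFT1 at -0.06 and SREBF2 at -0.03. Without normalization between arrays, which moved the median of all genes to -0.23, HMGCS1, IDI1 and INSIG1 were lower as well. None of the 8 was 2-fold apart, against 0.923% of all genes higher and 1.13% lower.

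At 48 h all 8 genes were lower on the non-specific stapled-peptide array than on the stapled-peptide array. FDFT1 differed most, at -2.01, a 4.04-fold lower signal. LSS followed at -1.50 (2.83-fold), HMGCS1 at -1.46 (2.75-fold) and SQLE at -1.28 (2.43-fold). These enzymes act at some of the steps from HMG-CoA to lanosterol, not at all of them. DHCR7 was lower at -1.16 and IDI1 at -1.12, so all 6 enzymes passed 2-fold. The regulators did not, with INSIG1 at -0.88 and SREBF2 at -0.63, or 1.84-fold and 1.55-fold.

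The median of the 8 differences was -1.22 with an SD over the 8 genes of 0.42, whereas the median of all genes was 0.03. The 6 of 8 genes at least 2-fold lower stand beside 19.8% of all genes lower and 21.2% higher in this comparison, and beside 19.0% lower among genes measured on all 4 arrays. At 1.5-fold all 8 genes were lower, against 30.5% of all genes, and at 4-fold only FDFT1 was, against 8.68%. Without normalization between arrays, which put the median of all genes at 0.26, IDI1 was at -0.89 and 5 of 8 passed 2-fold. In the order of the differences, LSS and HMGCS1 lay 0.04 apart and DHCR7 and IDI1 0.04 apart, under the spot error, while FDFT1 stood 0.52 beyond LSS and SREBF2 lay 0.25 short of INSIG1. The second LSS probe differed by -2.21, more than the brighter one.

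**Figure D2:**
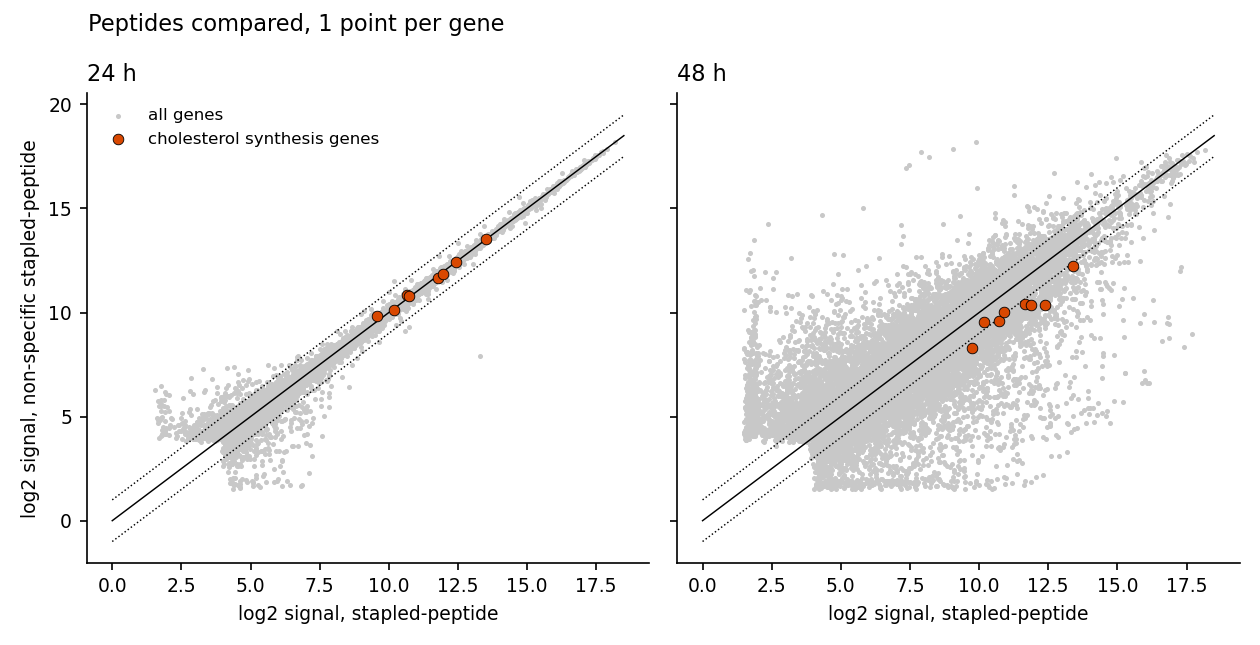
Log2 signal with non-specific stapled-peptide (vertical axis) against that with stapled-peptide (horizontal axis), at 24 h (left) and 48 h (right), with 1 point per gene and the 8 cholesterol genes marked (solid line, equal signals; dotted lines, 2-fold). At 24 h the 8 lie on the diagonal, with differences between -0.12 and 0.27, and at 48 h all 8 lie below it, between -2.01 and -0.63.

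From 24 h to 48 h under non-specific stapled-peptide the differences again rest on the array that stands apart. FDFT1 was lower at -2.08, HMGCS1 at -1.55, LSS at -1.46, DHCR7 at -1.30, SQLE at -1.26 and IDI1 at -1.24. INSIG1 at -0.78 and SREBF2 at -0.59 were again the smallest. The median was -1.28, and 6 of 8 genes were at least 2-fold lower, beside 20.0% of all genes lower, 21.3% higher and 19.3% lower among those measured on all 4 arrays. This comparison shares its 48 h array with that between the peptides at 48 h, so the values do not count as a second observation.

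**Figure D3:**
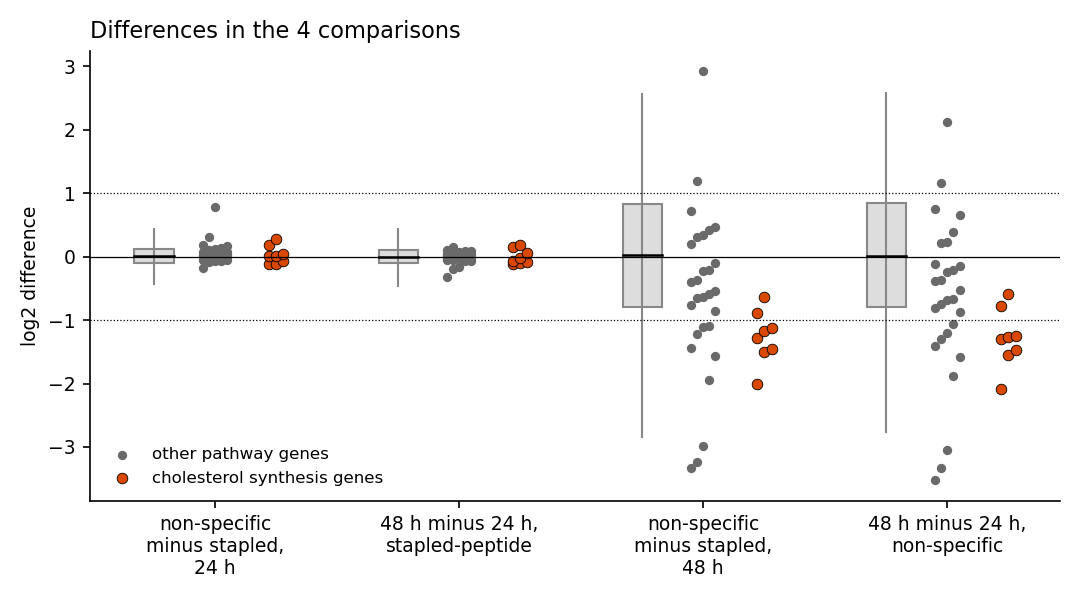
Log2 difference (vertical axis) in the 4 comparisons of peptides or times (horizontal axis), with 1 orange point for each of the 8 cholesterol genes, 1 grey point for each other pathway gene, and for all genes a box from the 25th to the 75th percentile with its median and lines to the 5th and 95th (dotted lines, 2-fold). The orange points of both comparisons without the non-specific stapled-peptide 48 h array lie between -0.12 and 0.27, and those of the other comparisons between -2.08 and -0.59.

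The rest of the pathway was described by 28 more genes: 14 of synthesis, 5 of the control of SREBP and 9 of the uptake and transport of sterols. At 24 h, 0 of the 28 were 2-fold apart, and from 24 h to 48 h under stapled-peptide 0 of the 27 with a value were, VLDLR being dim on both arrays. At 48 h, 9 were at least 2-fold lower with non-specific stapled-peptide and 2 higher, beside 19.8% of all genes lower and 21.2% higher, and the median was -0.56, against -1.22 for the 8 genes.

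Among the 14 other synthesis genes, 4 were at least 2-fold lower at 48 h (19.8% of all genes) and 1 was higher (21.2%), with a median of -0.56. MSMO1, which removes methyl groups after lanosterol, was at -3.24, with log2 signals of 8.52, 8.83, 8.55 and 5.31. Its probe had 10 spots, whose SD was at most 0.08 on the first 3 arrays and 0.22 on the fourth, so the gap was far wider than the spread between spots. MVD was at -1.56, TM7SF2 at -1.43 and FDPS at -1.12. MVD and FDPS act between mevalonate and squalene, next to IDI1. LBR, a sterol reductase of the inner nuclear membrane that can do the step of TM7SF2, was higher at 1.19. The other 9 lay between -0.65 for CYP51A1 and 0.43 for GGPS1, the latter a branch enzyme that leads away from sterols.

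Among the 5 control genes, SREBF1, which encodes SREBP-1, was at -1.94 and the only one past 2-fold, beside the same share of 19.8% of all genes lower. A dimmer SREBF1 probe was at -1.28. SCAP, the escort of SREBP, was at 0.72, in the opposite direction to SREBF2 and INSIG1. INSIG2, the other INSIG gene, was at 0.20, and its dimmer probe at -0.10, whereas INSIG1 was at -0.88. The proteases of SREBP had -0.39 for MBTPS1 and -0.22 for MBTPS2.

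None of the 8 genes encodes a lipoprotein receptor, and uptake was read from the 9 transport genes, of which 4 were at least 2-fold lower (19.8% of all genes) and 1 higher (21.2%) at 48 h, with a median of -0.86. NPC2, which hands cholesterol out of lysosomes, was at -3.33, STARD4, a cytosolic sterol carrier and SREBP-2 target, at -2.98, SCARB1, a receptor for high-density lipoprotein, at -1.23 and LIPA, the lysosomal lipase, at -1.09. NPC1, the partner of NPC2, was at -0.10. MYLIP, a ligase that leads to the breakdown of lipoprotein receptors, was at 0.47, and LRPAP1, a chaperone of such receptors, at -0.86, with 0.79 at a dimmer probe. The receptor LRP8 was at -0.77, and VLDLR was higher by at least 2.92, a bound because its brighter probe was not well above background with stapled-peptide. A dimmer VLDLR probe, for another transcript, was not well above background on any of the 4 arrays, so the difference rests on the brighter probe alone.

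**Figure D4:**
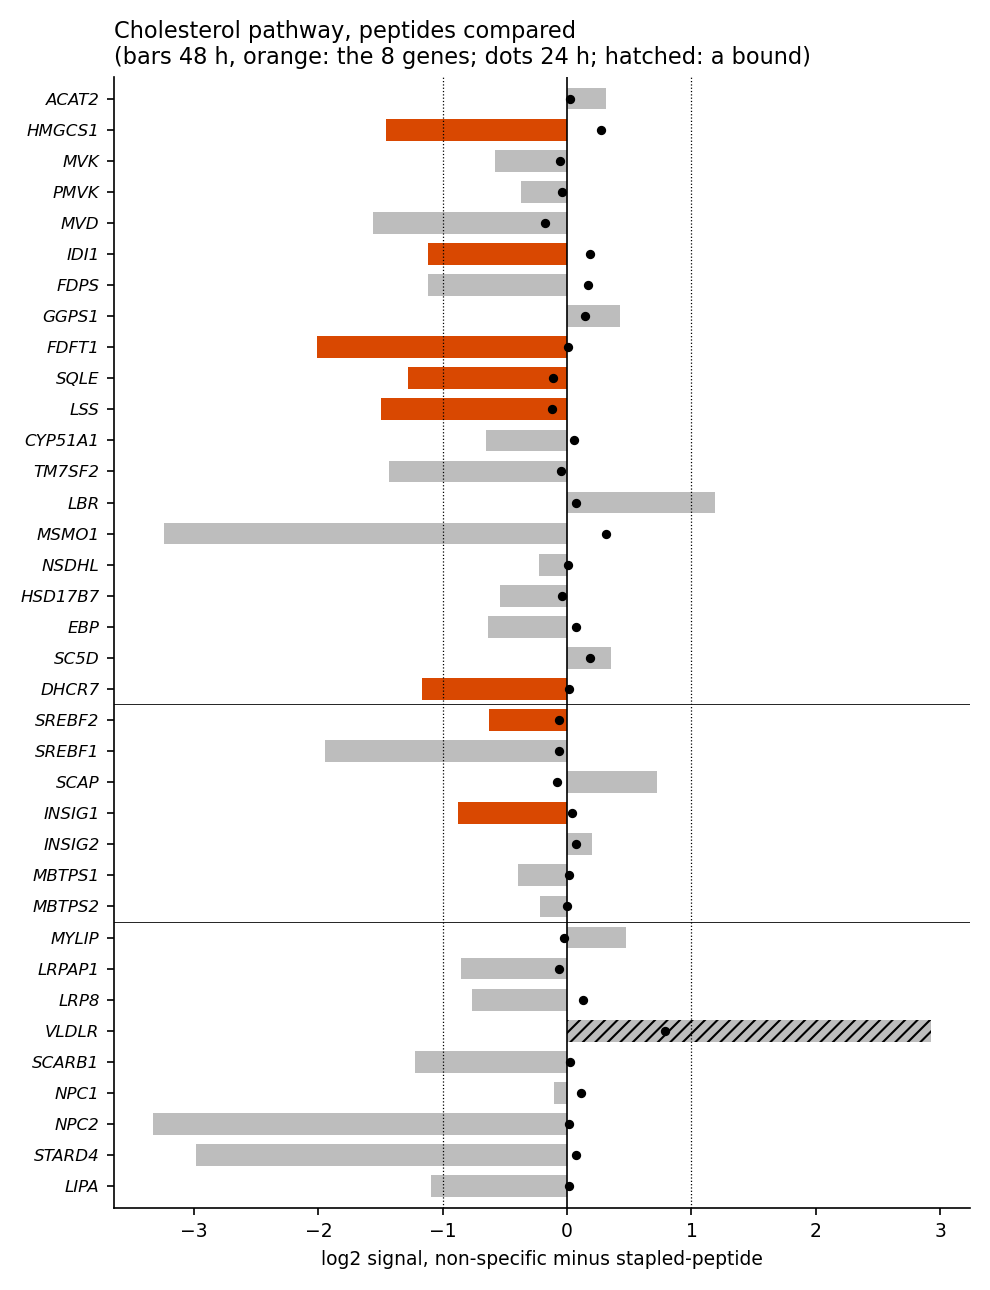
Log2 difference at 48 h, non-specific stapled-peptide minus stapled-peptide (horizontal axis, bars), of the cholesterol genes and the other pathway genes (vertical axis, in pathway order), with the same difference at 24 h as dots and a bound hatched. The bars of FDFT1 at -2.01, MSMO1 at -3.24 and NPC2 at -3.33 reach far to the left, SCAP, LBR and VLDLR point to the right, and the dots stay near 0 apart from VLDLR at 0.79, a bound.

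The genes with the pattern most like the median of the 8 were sought by the Euclidean distance of 3 log2 differences (peptides at 24 h, peptides at 48 h, and times under stapled-peptide), among 13959 genes well above background on all 4 arrays, from which the 8 genes and all genes of the pathway and marker lists had been left out. The nearest were UGCG at a distance of 0.01, PRXL2B at 0.01, KCNK1 at 0.03, CES2 at 0.03 and FSTL1 at 0.03. Their differences at 48 h lay between -1.25 for KCNK1 and -1.20 for FSTL1. UGCG makes glucosylceramide, the base of most glycosphingolipids.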

How the data were processed

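Total RNA of MCF-10A cells was labelled with Cy3 and hybridized to 1-colour Agilent whole human genome arrays, 1 for each peptide and time. All 4 arrays carried the same slide barcode and scan time in the file headers. The deposited values used were the authors' spot intensities, linear and background-subtracted by Feature Extraction (version 10.7.1.1 in the headers, 9.5 in the submitters' processing notes) and not normalized between arrays. The combined table, used as an alternative, held the mean of these intensities over the spots of a probe for 98.6% of values, within a relative tolerance of 0.001. Quantile normalization across the arrays follows the study's own methods.

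Of 62976 spots, 58717 were no controls. Spots marked as outliers (343 to 438 an array, 0 of them of the 8 genes) were dropped, log2 intensities of a probe's spots averaged, and 50590 of 50599 probes kept and quantile-normalized. The lowest signal was 2.33, and 0 spots were saturated. Between 62.5% and 65.7% of spots were well above background. A probe not so marked on 1 of the arrays compared was set there to the dimmest signal carrying the mark on that array unless already brighter, giving a bound, and a probe dim on both got no difference. RefSeq accessions named 28174 probes (55.7%) of 20501 genes, and a gene took its brightest probe. A difference counted as past the threshold at 2-fold (log2 of 1), without a test. The number of arrays limits the precision. The arrays were made on an older genome build than the GRCh38.p14 tables, so no position of a probe is printed.

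The named genes are the 8 genes, the genes of the pathway and marker lists, and the 5 nearest genes by distance. The 8 genes and the lists were chosen with earlier results of these data known. Some further genes of the pathway are not reported here. Other settings tried were no normalization between arrays, the 75th percentile of each array as its scale, normexp (offset 50), dim probes without bounds, probes marked on both arrays alone, outlier-marked spots kept, the combined table, thresholds of 1.5-fold and 4-fold, the mean over probes and, chosen after seeing the data, quantile normalization without the non-specific stapled-peptide 48 h array. The 2-fold call between the peptides at 48 h was run on arrays simulated from a common profile. It called 100 of 100 genes changed 4-fold, 0 of 100 changed below 2-fold and 0 of 15794 unchanged genes. In the data 7020 of 17150 genes were past 2-fold in that comparison. The simulation therefore does not show how the call behaves on arrays that differ so widely. The normexp correction came from limma 3.58.1 under R 4.3.3, and all else from Python 3.11.15 with numpy 2.4.6, pandas 2.3.3 and matplotlib 3.10.9.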

Additional observations from a re-analysis of the deposited data

Results flagged for a closer look

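For 5 of the 8 cholesterol genes the difference between the peptides had opposite signs at 24 h and at 48 h. All 8 were negative at 48 h, so these 5 are the ones that were positive at 24 h. Of all genes measured at 24 h, 8431 of 16267 were positive. The 48 h difference minus the 24 h difference was -1.73 for HMGCS1, -1.31 for IDI1, -0.92 for INSIG1, -2.02 for FDFT1 and -1.18 for DHCR7, on the log2 scale. For HMGCS1, IDI1 and INSIG1 the change from 24 h to 48 h also had opposite signs with the peptides, higher at 48 h with stapled-peptide and lower with non-specific stapled-peptide. Here too all 8 were lower with non-specific stapled-peptide, and with stapled-peptide 8086 of 16143 genes were higher at 48 h. There was 1 array for each condition, and the differences were not tested. The 24 h differences were 0.27 for HMGCS1 and 0.19 for IDI1, over the spot error of 0.11, which leaves out the spread between cultures. They were 0.01 for FDFT1, 0.02 for DHCR7 and 0.04 for INSIG1, under that error. Over 16267 genes the differences between the 24 h arrays had an SD of 0.44. The 48 h values rest on the array that stands apart. Without normalization between arrays the changes of HMGCS1, IDI1 and INSIG1 with stapled-peptide were -0.03, -0.15 and -0.08, so that their signs were no longer opposite.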

How the results depend on the processing

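At 48 h all 8 genes stayed lower with non-specific stapled-peptide in the 9 settings that gave values, from -2.17 to -1.84 for FDFT1 to -0.72 to -0.39 for SREBF2. Of 152 counts and medians under alternatives, 138 stayed within the spot error of 0.11 for a median or within 1.5 times for a count and 14 did not, and for single genes 243 of 272 differences stayed within that error and 29 did not. None past 2-fold turned its sign. Smaller values did: without normalization these were FDFT1 and DHCR7 at 24 h, HMGCS1, IDI1 and INSIG1 for times under stapled-peptide, and the medians of the 8 genes (-0.02) and of the other pathway genes (-0.02) at 24 h and of the latter for times under stapled-peptide, and with the 75th percentile FDFT1 and the median of the 8 genes (-0.0048) at 24 h. Without normalization the median of the 8 genes was -1.08 at 48 h (-1.22 as reported) and -0.26 for times under stapled-peptide (-0.04), and that of the other pathway genes -0.32 (-0.56) and -0.21 (0.0042). This setting also put the median of all genes at 0.26 and -0.23. With scaling to the 75th percentile, which put the median of all genes at -0.12 for times under non-specific stapled-peptide, the median of the 8 genes was -1.41 at 48 h and -1.44 (-1.28) for those times. With the mean over probes, the other pathway genes had a median of -0.46 (-0.59) for those times and -0.45 (-0.56) at 48 h. At 4-fold, 1 of the 8 genes passed in each comparison with that array, instead of 6, and 4 of the 28 other genes instead of 11, while at 1.5-fold 18 of the 28 passed for times under non-specific stapled-peptide and 1, VLDLR, instead of 0 at 24 h, as the thresholds themselves bring about. The cause of the other moves was not tested.

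Over all genes, 304 were past 2-fold at 24 h, against 33 with normexp, 130 with only those probes marked as well above background on both arrays and 500 without bounds. For times under stapled-peptide these were 332, 45, 139 and 548, with 521 without normalization, and for times under non-specific stapled-peptide 7147, with 4695 by normexp. Of genes past 2-fold, 48.3% were lower at 48 h and 37.4% without normalization, and 55.1% for times under stapled-peptide, with 84.5% without normalization and 69.7% by the 75th percentile. Names from a gene name column were not tried, since the files used hold none. No paired analysis was possible because each peptide and time had 1 array and no test was made. Depth here is signal over background: all 9 probes of the 8 genes were well above it, whereas VLDLR was not with stapled-peptide.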

Other observations

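Of 8 genes of fatty acid synthesis, which answer mainly to SREBP-1, 4 were at least 2-fold lower at 48 h with non-specific stapled-peptide and 0 higher, beside 19.8% of all genes lower and 21.2% higher, and the median difference was -1.27 on the log2 scale. ACSS2, which makes acetyl-CoA from acetate, was at -3.80, with log2 signals of 11.73, 11.69 and 11.68 on the other 3 arrays and 7.88 on the non-specific stapled-peptide 48 h array. FADS2, a desaturase, was at -2.35, FASN, the fatty acid synthase, at -1.84 and ELOVL6, an elongase, at -1.56. SCD was at -0.98, FADS1 at -0.42, ACLY at -0.39 and ACACA at -0.06, with 0.70 at a dimmer probe. These values rest on the same array as those of the cholesterol genes.

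Of the genes of sterol sensing by LXR and of efflux, the LXR genes NR1H2 at -2.21 and NR1H3 at -1.59 were at least 2-fold lower at 48 h, 2 of the 5 with a value, beside the same 19.8% of all genes. ABCA1, the exporter of cholesterol to apolipoproteins, was higher by at least 0.93, a bound, ABCG1 was at -0.21 and SOAT1, which esterifies cholesterol, at -0.82. CH25H and a dimmer probe of ABCA1 were not well above background on any of the 4 arrays.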
